A study of Spodoptera frugiperda with 12 samples.

Results

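Densely marked loci are stretches of the fall armyworm genome that carried many N6-methyladenosine (m6A) peaks in every captured embryo sample, at 2 h and at 24 h after egg laying. Peaks of the 6 captured samples were pooled, and those on the same strand with less than 2000 bases between them were joined into loci. The members were then selected on their peak numbers, as loci with at least 10 peaks in each of the 6 deposited peak lists and with a ratio of total 24 h to total 2 h peaks above 0.5 and below 2. Of 17120 loci, 741 met these limits (4.33%). They lay on 53 sequences, 378 on the plus strand and 363 on the minus strand, and 739 of them were nuclear and 2 mitochondrial. Because the loci were chosen by the number of peaks and its balance between the times, both are described here without a test.

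The samples were whole embryos of *Spodoptera frugiperda*, a noctuid moth kept as a laboratory colony, collected in bulk at 2 h (3 captured samples) and at 24 h (3 captured samples). Messenger RNA bound to oligo(dT) beads was cut to fragments of about 100 nucleotides and captured with an m6A antibody. The uncaptured input samples were not analysed here, so marking cannot be told apart from the abundance of the RNA. Separate egg batches for the 3 samples of each time are not stated in the labels, and p-values therefore reflect a spread that may be technical. The 6 lists held between 51157 and 58161 peaks, and the depth behind a peak is unknown.

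The m6A mark is written on nascent messenger RNA by a methyltransferase complex built around METTL3 and METTL14, and it is read by proteins with a YTH domain that influence splicing, translation and decay of the transcript. In mammals the mark gathers near the stop codon and in the 3' untranslated region. Early insect embryos rely on messenger RNA laid down by the mother, which is later cleared while the embryo's own genome takes over. No annotation of the nuclear sequences in the lists was used, so the nuclear loci carry no gene names and whether a peak is exonic or intronic was not analysed. Positions count from 1 on the sequences as the authors named them, and no source used here gives the genome build.

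A typical densely marked locus held about 16 separate peaks in each list over some 10 kilobases of genome. The median number of peaks per locus was 16, 17 and 16 in the 3 lists of 2 h and 15 in each of the 3 lists of 24 h. Among loci the number ranged from 10 to 44 in the 2 h lists and from 10 to 51 in the 24 h lists, and the lists overlapped over nearly the whole range. The 741 loci together held 12999 ± 304 peaks per list at 2 h and 12427 ± 151 at 24 h (mean ± SD over 3 lists per time). This was 24.4% ± 0.350 of a 2 h list and 21.7% ± 0.266 of a 24 h list (SD, n = 3 each).

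**Figure D1:**
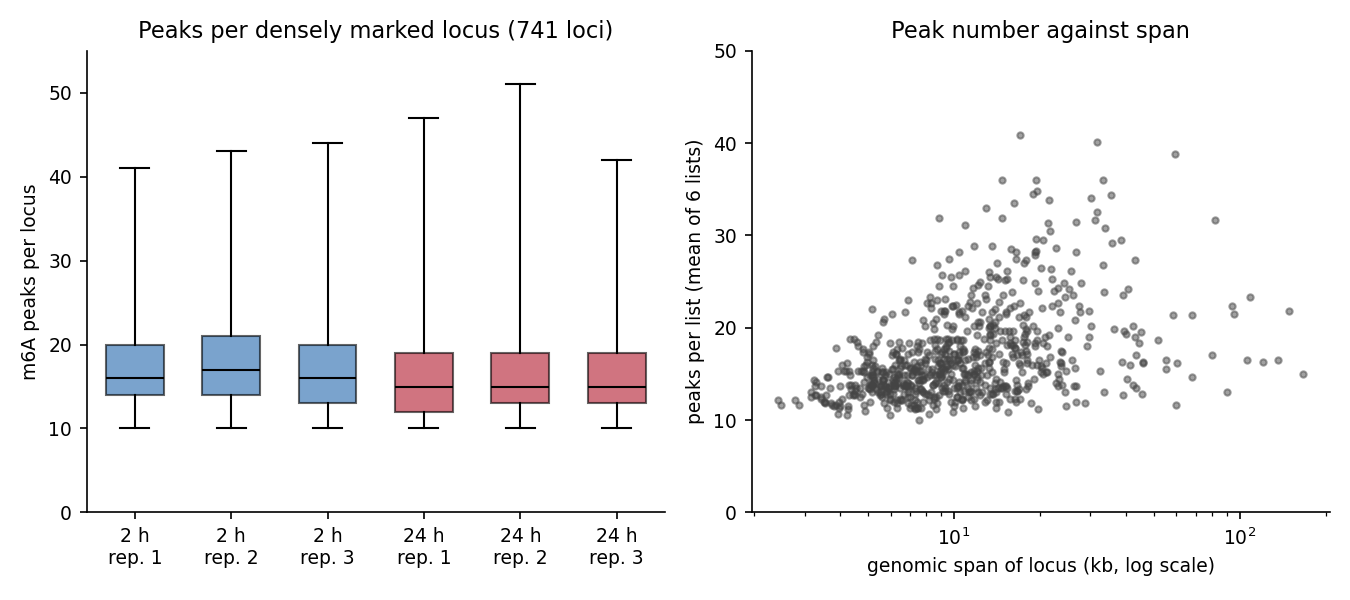
Left, m6A peaks per densely marked locus in each of the 6 lists (boxes from the 25th to the 75th percentile with the median as a line, whiskers from the lowest to the highest of 741 loci). Right, the mean number of peaks per list against the genomic span of each locus in kilobases on a log scale. The boxes of all 6 lists overlap, with medians from 15 to 17, and loci of very different span carry similar numbers of peaks.

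The genomic span of these loci ran from 2417 to 166905 bases, with a median of 10019. The middle 50% lay between 6691 and 15935 bases, 115 spanned over 20000 bases and 6 over 100000. The number of peaks per kilobase of span, as a mean over the 6 lists, had a median of 1.67 and ranged from 0.0899 to 5.03. Loci just short of the limit, with 5 to 9 peaks in their poorest list and the same window of the ratio, are called next-densest loci here. There were 1711 of them, with a median span of 5923 bases and a median of 1.46 peaks per kilobase. Densely marked loci were thus mainly longer, and their peaks lay only slightly closer together over the whole span.

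Long spans came in part from single long peaks. In 359 of the 741 loci no peak in any list spanned over 1000 bases, and these had a median span of 7125 bases and 2.26 peaks per kilobase. In 71 loci a peak spanned over 10000 bases, and in 67 loci 1 peak covered over 50% of the locus. Peaks over 1000 bases were only 1.95% to 2.53% of the peaks per list in these loci. When only peaks of at most 1000 bases were used to build the loci, 633 met the rule.

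Where the limits fell, values changed gradually. With the ratio inside its limits, 158 loci had exactly 10 peaks in their poorest list and a median of 12.8 peaks per list, and 198 loci with 9 peaks there and a median of 11.3 were left out. Only 4 loci with at least 10 peaks in every list failed on the ratio. One on the plus strand of NC_049723.1 (2077301 to 2091831) had a ratio of 0.494, while the members' lowest was 0.557. The other three had 2.24 (plus strand of NC_049710.1, 17871414 to 17899187), 2.63 (minus strand of NC_049714.1, 5003108 to 5047938) and 2.68 (plus strand of NC_049717.1, 14417362 to 14438793), above the members' highest of 1.98.

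The peaks of a densely marked locus were short and closely packed. Over the 6 lists, 32.7% ± 0.681 of them spanned 25 bases, 17.3% ± 0.268 spanned 50 bases and 18.8% ± 2.52 spanned 75 bases (SD, n = 6). The gap from the end of a peak to the start of the next one in the same list had a median of 175 to 225 bases. A gap of exactly 25 bases, the smallest step in these lists, was the most common and made up 10.9% to 11.9% of gaps per list. Gaps under 500 bases were whole multiples of 25 bases in 91.9% to 93.8% per list, and gaps of 500 bases or more in 27.0% to 33.1%, against 4% by chance. Over all distances 75.3% to 78.2% of gaps were such multiples. The same step of 25 bases set the lengths of the short peaks, and since the peak caller is not known, the part of peak calling in the step and in the close packing was not tested.

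**Figure D2:**
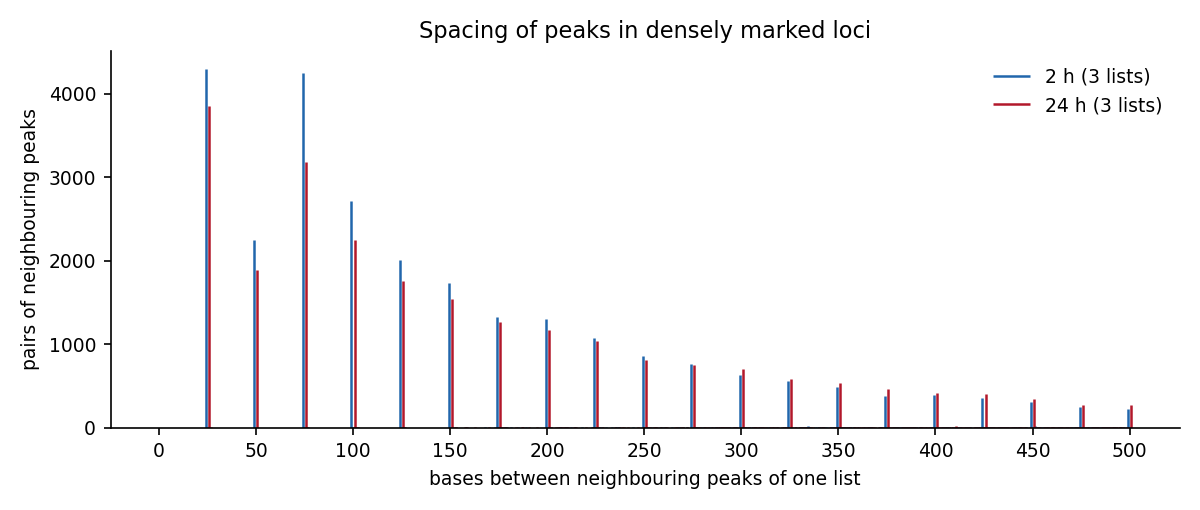
Number of pairs of neighbouring peaks of 1 list (vertical axis) by the bases between them (horizontal axis), summed over the 3 lists of each time, in the 741 densely marked loci. Up to 500 bases, the range drawn, nearly all pairs stand on multiples of 25 bases, with 8153 pairs at 25 bases, 4143 at 50 and 7439 at 75 over both times.

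Much of this packing lay below the length of the RNA fragments. Between 25.2% and 30.3% of gaps per list were shorter than 100 bases, the stated fragment length. When peaks of a list less than 100 bases apart were counted as 1, a median of 11 or 12 groups of peaks per locus remained in each list, and 354 of the 741 loci still had at least 10 in every list and the ratio inside its limits. At least 5 such groups in every list remained in 732 loci. The median gap averaged 183 ± 14.4 bases at 2 h and 217 ± 14.4 at 24 h (SD, n = 3 lists each). By list it was 200, 175 and 175 at 2 h and 225, 225 and 200 at 24 h, so the times met at 200. Gaps depend on the number of peaks, which the rule used, and this difference was not tested. Counted as groups, the loci held 9322 ± 251 per 2 h list and 9410 ± 95.6 per 24 h list (SD, n = 3), a difference within the spread among lists.

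The locus with the most peaks in its poorest list lay on the plus strand of NC_049715.1 from 4332793 to 4349797, a span of 17005 bases. It had 40, 39 and 44 peaks in the 2 h lists and 37, 43 and 42 in the 24 h lists. The ranges of both times overlapped, and the ratio was 0.992. Its 245 peaks fell into 72 merged regions of overlapping peaks, of which 15 were present in each list and 29 in only 1. The first 7 kb from the 5' end held 5 to 9 peaks per list, and the stretch past 15 kb held 6 to 11. Strength differed along it: the median score percentile (the rank of the authors' deposited score within its list, where 100 is the strongest) was 31.9 in the first 7 kb, 45.0 from 7 to 15 kb and 86.8 past 15 kb. Peaks in regions shared by all 6 lists were 13.6%, 44.7% and 74.5% of these 3 parts. Its strongest constant region, 175 bases from 4348973 to 4349147, reached the 95.2nd to 96.6th percentile in the 6 lists. The 7 and 15 kb limits were chosen after the values were seen.

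**Figure D3:**
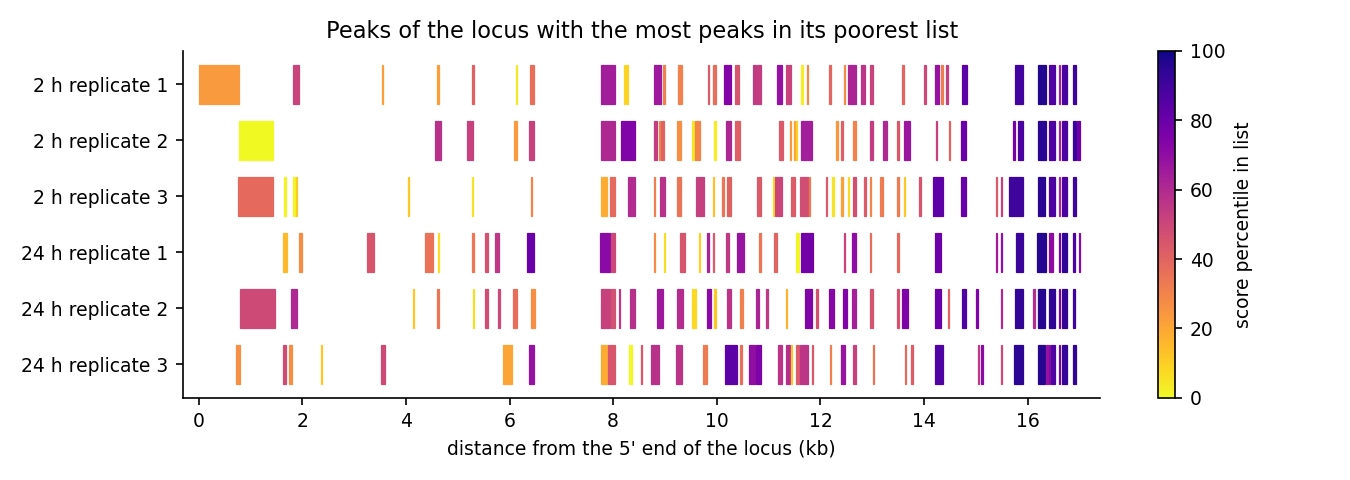
Every m6A peak of this locus in the 6 lists (rows), drawn to scale by distance from its 5' end in kb, with colour for the score percentile within the list. Peaks in the first 7 kb are few and mostly weak, and 13.6% of them lie in regions shared by all 6 lists. The strong peaks past 15 kb stand mostly at the same places in all 6 lists.

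Next by this measure came 5 loci with at least 30 peaks in every list. A plus-strand locus of NC_049730.1 (11420806 to 11452334) had 38, 40 and 43 peaks at 2 h and 36, 42 and 42 at 24 h, and a plus-strand locus of NC_049720.1 (11024962 to 11039680) had 39, 37 and 35 and then 36, 36 and 33. In both the ranges of the times overlapped, and in both the strongest constant region was the 3' end itself, 175 bases from 11452160 at the 97.1st to 98.0th percentile and 260 bases from 11039421 at the 92.6th to 96.0th. A minus-strand locus of NC_049725.1 (8845037 to 8904505) had 32, 38 and 37 peaks at 2 h and 35, 51 and 40 at 24 h. All of its peaks of at most 1000 bases lay past the middle of the span on the 3' side, a single peak covered 62.4% of its span, and 44 of its 94 merged regions had a peak in 1 list. The last pair, both on NC_049710.1, differed in agreement between lists. The plus-strand locus (16133443 to 16166725) had 34, 37 and 38 and then 31, 43 and 33 peaks, with 19 of 57 regions constant in all 6 lists. Its minus-strand counterpart (16898951 to 16917866) had 36, 43 and 34 and then 34, 30 and 30 peaks, with 13 of 64 regions constant, and its 24 h range touched its 2 h range at a single value.

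The most compact loci held their peaks within a few kilobases. The shortest and most tightly packed lay on the minus strand of NC_049710.1 (18797155 to 18799571), with 14, 10 and 13 peaks at 2 h and 12 in each 24 h list, or 5.03 per kilobase. A plus-strand locus of NC_049724.1 (8832225 to 8834699) had 4.71 per kilobase, with 12, 13 and 13 and then 10, 12 and 10 peaks. It was followed by a minus-strand locus of NC_049710.1 (18047391 to 18051265) with 4.60 per kilobase, where 19, 17 and 23 peaks at 2 h stood against 15, 16 and 17 at 24 h. In that locus 12 of 21 merged regions were constant. Among the 3 shortest was also a locus on the minus strand of NC_049736.1 (2878462 to 2881236). It had 14, 11 and 12 and then 14, 11 and 11 peaks, with 8 of 15 regions constant. In these compact loci the peaks were spread more evenly, with 8.22% to 14.3% in the last 10%.

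In 2 of the 3 longest loci nearly all short peaks sat at the 3' end of a large span. On the plus strand of NC_049735.1 (9818808 to 9966877, 148070 bases), 96.9% of the peaks of at most 1000 bases lay in the last 10%, with 14, 23 and 14 peaks at 2 h and 22, 31 and 27 at 24 h. A plus-strand locus of NC_049724.1 (15664863 to 15800281, 135419 bases) had 93.5% in the last 10%, with 16, 18 and 21 and then 11, 14 and 19 peaks. The longest of all, on the plus strand of NC_049721.1 (3423230 to 3590134, 166905 bases), had 18, 20 and 13 and then 14, 13 and 12 peaks. A peak of 159942 bases covered 95.8% of it, and its peaks formed only 4 merged regions. How much of such a span is transcribed into mature RNA was not analysed.

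Along the span, peaks gathered towards the 3' end and were scarcest just behind the 5' end, in the second 10%. Each locus was divided into 10 equal parts of 10% in the direction of its strand, and the peaks of at most 1000 bases were placed by their midpoints. The last 10% held 24.1%, 24.2% and 25.6% of peaks in the 2 h lists and 22.8%, 23.0% and 23.8% in the 24 h lists. The first 10% held 7.84% to 8.65% over the 6 lists, and the second 10% held the least, 5.41% ± 0.382 (SD, n = 6). From there the share rose at each step to 14.0% ± 0.454 in the ninth part (SD, n = 6). The last 10% exceeded the first by 15.7 ± 1.29 percentage points (SD, n = 6), with the same sign in 6 of 6 lists (p = 0.03125 by a two-sided exact sign-flip test, Benjamini-Hochberg adjusted p = 0.0417 over 4 comparisons). Locus ends are set by peaks, and without the outermost merged region at each end of a locus the difference was 14.9 points. With a joining distance of 500 bases it was 10.4 points.

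The gradient held in most single loci. In 638 of the 741 loci the last 10% had more peaks than the first, summed over the lists, in 90 it had fewer and in 13 the numbers were equal. Of the 695 loci with a single richest part of 10%, this was the last in 396, the ninth in 69 and the first in 20. The share in the last 10% of a locus had a median of 21.7%, with 25% of loci below 14.8% and 25% above 30.2%. The exceptions included a plus-strand locus of NC_049710.1 (13903587 to 13916364). Over the 6 lists, 12 of its peaks of at most 1000 bases had their midpoint in its first 10% and 0 in its last. No counts of single next-densest loci are set beside these, so nothing is read as particular to the densely marked loci. As a set, the next-densest loci held 24.7% of their peaks in the last 10% and 11.0% in the first.

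Peaks in the last 10% were also the stronger ones. Their median score percentile was 67.9 ± 2.89, against 50.7 ± 1.04 in the first 10% (SD, n = 6 lists), a difference of 17.2 ± 2.35 in the same direction in 6 of 6 lists (p = 0.03125 by the same exact test, adjusted p = 0.0417). It shrank to 4.44 within the stronger 50% of each list and to 5.69 when peaks were joined within 10000 bases. The lowest mean was in the second 10%, at 46.1 ± 0.957 (SD, n = 6). The strongest peak of a locus lay in the last 10% in 47.4% to 57.8% of loci per list and in the first 10% in 4.46% to 8.14%. Those strongest peaks had a median span of 125 to 175 bases, longer than the median of 50 to 73 bases for all peaks of these loci. The input was not used, and read coverage along the transcripts was not measured, so its part in the gradient was not tested.

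**Figure D4:**
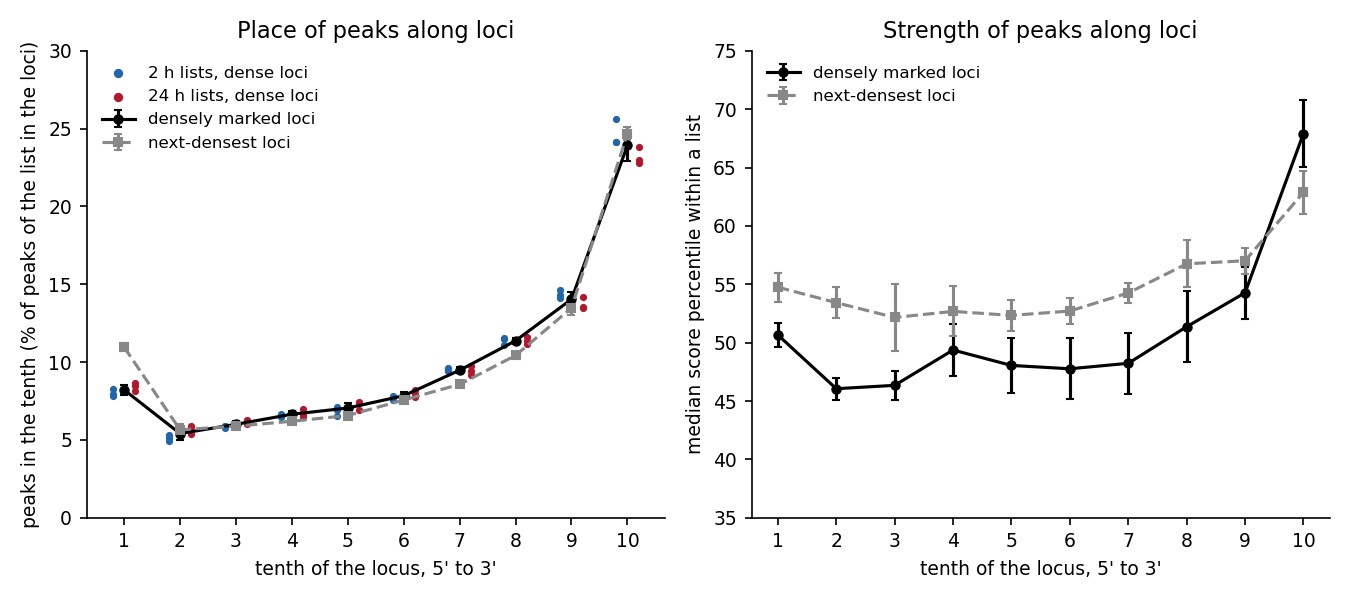
Left, share of the peaks of a list in each 10% of a locus from 5' to 3' (points in colour are single lists of the densely marked loci), and right, median score percentile in each 10%, for densely marked loci (black) and next-densest loci (grey), as means ± SD over 6 lists. Both measures peak in the last 10%, at 23.9% and 67.9 in the densely marked loci and at 24.7% and 62.9 in the next-densest loci, and the first 10% is lower in the densely marked loci (8.22% against 11.0%).

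Set beside the next-densest loci, the densely marked loci had weaker peaks on average but not a clearly different 3' share. The median score percentile of their peaks was 54.3 ± 1.80, against 57.0 ± 0.821 in the next-densest loci (SD, n = 6 lists), a difference of -2.70 ± 1.03 in 6 of 6 lists (p = 0.03125, exact sign-flip test, adjusted p = 0.0417). This difference was -4.93 with a joining distance of 500 bases and turned to 4.13 with one of 10000. The last 10% held 23.9% ± 1.01 and 24.7% ± 0.437 of peaks in the respective sets (SD, n = 6), a difference of -0.756 ± 0.725 (p = 0.0938, exact sign-flip test, adjusted p = 0.0938, lower in 5 of 6 lists). That difference changed sign to 2.27 without the outermost merged regions and to 3.42 in the stronger 50% of each list. In the last 10% itself the densely marked loci had the higher median percentile, 67.9 against 62.9, a contrast that was not tested.

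Peaks of these loci overlapped best among the 2 h lists. A peak of a 2 h list was overlapped by at least 1 base on its strand in another 2 h list in 70.2% ± 1.04 of cases, and in a 24 h list in 58.9% ± 0.406 (SD, n = 3 lists). A peak of a 24 h list was overlapped in another 24 h list in 58.7% ± 0.524 of cases and in a 2 h list in 64.2% ± 0.715 (SD, n = 3). The pairs of a 24 h list with a 2 h list ran from 62.2% to 66.0%, and the pairs among 24 h lists from 57.0% to 59.8%, with no overlap between these ranges. A 24 h peak thus had a partner more often in a 2 h list than in another 24 h list. Beside this, the 2 h lists covered more of these loci, 1246 ± 40.2 kb per list against 1114 ± 22.0 kb at 24 h in peaks of at most 1000 bases (SD, n = 3), and the part of this coverage in the overlap was not tested. The next-densest loci had the same order, with 72.3% among 2 h lists, 61.1% among 24 h lists and 66.0% of 24 h peaks in 2 h lists.

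**Figure D5:**
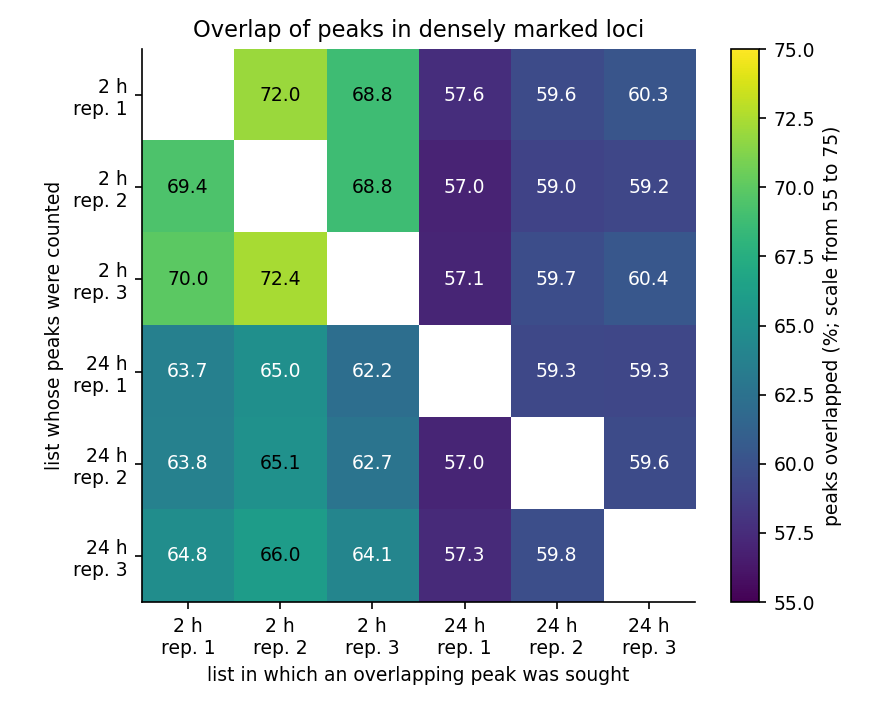
Percentage of the peaks of 1 list (rows) in densely marked loci that were overlapped by at least 1 base in another list (columns), for all 30 ordered pairs of the 6 lists, with a colour scale from 55% to 75%. The block of 2 h lists at the top left holds the highest values (68.8% to 72.4%), and the block of 24 h lists at the bottom right (57.0% to 59.8%) lies below the rows of 24 h peaks sought in 2 h lists (62.2% to 66.0%).

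Averaged over both directions of a pair, pairs of lists of the same time exceeded pairs of different times by 2.96 percentage points, the largest of the 10 splits of the lists (two-sided exact permutation p = 0.1, the smallest possible, adjusted p = 0.1 over 4 comparisons). This excess rested on the 2 h lists, whose pairs averaged 70.2%, while pairs among 24 h lists averaged 58.7%, below the 61.5% of pairs between the times. Without 2 h replicate 1, 2 or 3 it was 0.224, 0.0618 and -0.0279, and without 1 of the 24 h lists it was 5.53 to 6.18. It was 6.04 within the stronger 50% of each list.

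Only a minority of single places within these loci was constant, but these places held many of the peaks. The peaks of all lists formed 22591 merged regions in the densely marked loci, and 4456 of them were present in each of the 6 lists, 19.7% against 15.7% of all merged regions in the series. The share was 21.6% in the next-densest loci, so the densely marked loci did not stand above them. A peak in 1 list alone was found in 8369 regions, 37.0% against 44.5% of all merged regions and 36.3% in the next-densest loci. The rule asked for peaks in every list, and many loci of the series lack a peak in some list. Nothing is therefore read from the differences from all merged regions. Counted by peaks, the regions present in all 6 lists held 44.7% of the peaks of the densely marked loci. Regions of 1 list held 11.0%. The constant regions were the wide and strong ones, with a median span of 175 bases and a median score percentile of 71.3 for their peaks, against 25 bases and 29.1 for regions of 1 list. In between, the percentile rose with each further list, to 35.1 in 2, 40.0 in 3, 45.2 in 4 and 51.2 in 5 lists. A wider region has more chance to meet a peak of another list, so span and constancy are not separate measures. A locus had a median of 6 constant regions and at most 19, 73 loci had at least 10, and 2 loci had none.

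Constancy followed the 3' gradient. Among merged regions of at most 1000 bases, 33.2% were constant in the last 10% of the loci, 17.5% in the first and 11.1% in the second. Regions of 1 list made up 24.9% of the last 10% and 47.2% of the second. The last 10% also held the most peaks, 23.9%, and the part of this crowding in the constancy was not tested. The strongest peak of a locus fell in the same merged region in all 3 lists of 2 h in 433 loci, in all 3 lists of 24 h in 371 loci, and in all 6 lists in 245 loci (33.1%). In 30 loci the lists of each time had the same strongest region among themselves but a different one from the other time. No such counts for other loci are set beside these, so whether this agreement is high or low is not read.

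The loci with the largest share of constant regions illustrate how merging acts. A plus-strand locus of NC_049722.1 (2322472 to 2329375) had 8 constant regions of 9, with 13, 12 and 12 peaks at 2 h and 13, 13 and 12 at 24 h, so its counts hardly varied. Its strongest region, 200 bases from 2329076 to 2329275 in the last 10%, had an infinite score in all 6 lists. In contrast, a plus-strand locus of NC_049724.1 (15077787 to 15123342) counted as fully constant only because a peak of 45556 bases covered all of it and merged its 15, 14, 13, 12, 10 and 13 peaks into 1 region.

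The strongest marks were rare in these loci. An infinite score, the top of the deposited scale, was given to 70 to 141 of their peaks per list (0.551% to 1.08%). No share over the whole lists is set beside this, so nothing is read on whether these loci are rich in such scores. An infinite score was reached in all 6 lists in 38 merged regions of 26 loci, 29 of them nuclear and 9 mitochondrial. Of the nuclear ones, 11 lay in the last 10% and 0 in the first, and their median span was 225 bases. A plus-strand locus of NC_049715.1 (3780822 to 3796314; 14, 10 and 10 peaks at 2 h, 11, 10 and 10 at 24 h) held 4 of them, including 3 short ones of 25, 25 and 87 bases in the last 10% of the span. A minus-strand locus of NC_049721.1 (1656343 to 1665455; 14, 15 and 12, then 13, 12 and 13 peaks) held 3, at 1658289 to 1658363, 1658614 to 1659035 and 1660728 to 1661004.

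The 2 mitochondrial loci were among the most constant. The plus-strand locus (248 to 5891), over ND2, the cytochrome c oxidase genes COX1 to COX3, the ATP synthase genes ATP8 and ATP6, and ND3, had 13, 16 and 16 peaks at 2 h and 13, 15 and 14 at 24 h, with 13 of 16 regions constant and 7 of them at an infinite score in all 6 lists. The minus-strand locus (6382 to 12713), over the complex I genes ND5, ND4, ND4L and ND1, had 11, 11 and 12 and then 10, 10 and 14 peaks, with 10 of 12 regions constant.

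Although the rule kept the times in balance, the counts leaned towards 2 h. The ratio of 24 h to 2 h peaks had a median of 0.951, it was below 1 in 450 loci, above 1 in 247 and exactly 1 in 44, and 595 loci lay between 0.8 and 1.25. The median was 0.944 in the next-densest loci and 1.00 in the 8945 loci with a peak in all 6 lists. Every 24 h list was below every 2 h list in 102 of the 741 loci (13.8%, against 7.72% of the 8945), and every 24 h list was above in 38 (5.13%, against 4.90%). The rule used these counts, so nothing is read from either share. Within a time, the counts of a locus varied by a median coefficient of variation of 11.1% among the 2 h lists and 12.0% among the 24 h lists.

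The members nearest to the ratio limits show the range that balance allowed. On the minus strand of NC_049729.1 (9966957 to 9975362), 26, 26 and 27 peaks at 2 h stood against 17, 15 and 12 at 24 h, a ratio of 0.557. Both other low-ratio loci were on the plus strand of NC_049710.1. The one from 13903587 to 13916364, with no peak of at most 1000 bases centred in its last 10%, had 30, 31 and 29 peaks against 11, 24 and 16. The one from 2945627 to 2964512 had 27, 26 and 24 against 15, 16 and 13. In each of these 3 loci the times did not overlap. The highest ratio, 1.98, was on the plus strand of NC_049713.1 (2701368 to 2744256), with 23, 18 and 14 peaks at 2 h and 37, 38 and 34 at 24 h. There the strongest constant region, 400 bases from 2743657 in the last 10%, stood at the 30.6th to 48.3rd percentile at 2 h and at the 89.3rd to 94.4th at 24 h. Plus-strand loci of NC_049734.1 (6796780 to 6818736; 12, 22 and 13 against 32, 26 and 29) and NC_049714.1 (17140458 to 17158269; 15, 18 and 13 against 21, 27 and 33) followed. Constant regions were few in these 3 high-ratio loci, 2 of 81, 2 of 75 and 4 of 40. In the 3 low-ratio loci they were 6 of 45, 1 of 45 and 1 of 63 in the order named. Over all members the medians were 6 constant regions per locus and 20.8% of its regions. Unequal counts leave fewer places for all 6 lists to share, so nothing is read from these numbers.

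Places marked at 1 time only were uncommon. In the densely marked loci 166 merged regions were found in every 24 h list and in no 2 h list, 0.735% against 2.30% of all merged regions. The opposite was true of 360 regions, 1.59% against 1.66%. The next-densest loci were similar, with 0.857% and 1.84%, and both sets were chosen for a balance of the times. Among regions of at most 1000 bases, 96 of the 355 regions of 2 h alone lay in the last 10% of their loci (27.0%), 13 of the 148 regions of 24 h alone (8.78%), and 4059 of all 21904 (18.5%). A region of 2 h alone occurred in 258 loci, one of 24 h alone in 130, and both in 41.

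In the measures the rule did not use, the times differed by small amounts. All 3 differences had the smallest p that the design allows. Peaks of exactly 75 bases made up 16.6% ± 0.219 of the peaks of these loci at 2 h against 21.0% ± 1.11 at 24 h (SD, n = 3), a difference of 4.41 percentage points with no overlap between the times (exact two-sided permutation p = 0.1). In the whole lists the shares were 16.0% ± 0.294 and 22.0% ± 1.80 (SD, n = 3). The median score percentile averaged 52.8 ± 0.960 for 2 h lists and 55.8 ± 0.615 for 24 h lists (SD, n = 3), higher by 3.01 at 24 h without overlap (exact two-sided permutation p = 0.1). This gap was 1.32 within the stronger 50% of each list and 1.79 when peaks were joined within 10000 bases. The percentile stood at 56.4 ± 0.647 and 57.6 ± 0.497 in the next-densest loci (SD, n = 3). A percentile is relative to the whole list of its time. The share in the last 10% was lower at 24 h by 1.42 percentage points, 23.2% ± 0.554 against 24.6% ± 0.846 (SD, n = 3, exact two-sided permutation p = 0.1), and the 2 h lists did not overlap with the 24 h lists. It was -0.931 without 2 h replicate 3 (exact permutation p = 0.2), -0.374 with peaks less than 100 bases apart counted as 1 (exact permutation p = 0.3) and -0.0943 when peaks were joined within 500 bases (exact permutation p = 0.8). The adjusted p was 0.1 over 4 comparisons for each, and 3 lists against 3 cannot give less than 0.1.

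Densely marked loci were unevenly spread over the sequences. NC_049710.1 carried 77 of them, which was 21.8% of its 354 loci with a peak in all 6 lists, against 8.28% over the whole series. On the other 30 sequences with at least 100 such loci this share ran from 0% to 10.7%, with a median of 7.62%. Both strands of NC_049710.1 contributed, with 39 and 38 loci, and in windows of 4 Mb the share ran from 12.5% to 38.9%, the highest in the first 4 Mb (14 of 36). Its densely marked loci had a median of 17.2 peaks per list against 15.5 elsewhere. Its loci with a peak in all 6 lists were also longer, with a median span of 5307 bases against 3598. For next-densest loci the sequence was ordinary, at 20.9% against 19.1% overall. At the other end, NC_049740.1 had 0 densely marked loci among 180, NC_049738.1 had 1 of 124 and NC_049735.1 had 4 of 251. No test was made of this spread, because neighbouring loci are not independent.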

How the data were processed

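The data are 6 peak lists, 1 per captured sample (3 of 2 h, 3 of 24 h), grouped by sample title. HOMER, HISAT2 2.1.0, Bowtie2 2.2.5 and fastp 0.20.0 are named in the submitters' processing notes, with no roles. No source used here gives the peak caller, its threshold or the genome build. The score in the deposited lists is the authors' own value per peak, of unstated scale, and was used only as a rank within a list. The lists hold no read counts, so depth and counting precision are unknown.

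Loci joined same-strand peaks with gaps under 2000 bases, and merged regions joined peaks overlapping by at least 1 base. Positions used peaks of at most 1000 bases. The members, the rules and the comparisons were chosen with earlier results of these data known. Loci were named by fixed measures: most peaks in the poorest list, most peaks per kilobase, longest, shortest, highest and lowest ratio, highest share of constant regions and most constant regions of infinite score. Single loci and limits named otherwise were chosen after their values were seen. Comparisons over the 6 lists used exact sign-flip tests (smallest p 0.03125), and comparisons of times exact permutation tests (smallest p 0.1), each family of 4 adjusted by Benjamini-Hochberg. The RefSeq gene table of another assembly served only for the mitochondrial genes, matched by position. Alternatives were stronger peaks, other joining distances and limits, wider parts of a locus, outermost regions left out, each list left out, and a replicate block. Scripts were tested on simulated lists and used Python 3.11.15, numpy 2.4.6, pandas 2.3.3 and matplotlib 3.10.9.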

Additional observations from a re-analysis of the deposited data

How the results depend on the processing

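The number of densely marked loci, 741, depended most on the rule: 355 with a joining distance of 500 bases, 1264 with 10000, 2452 with at least 5 peaks in every list, 231 with at least 15, 1135 with both strands joined, 146 in the stronger 50% of each list and, chosen after seeing the data, 354 with peaks less than 100 bases apart counted as 1. Leaving out 1 list gave 753 to 784.

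Of the 100 alternatives to the tested results, 74 kept both direction and side of the threshold. These include every alternative for the 24 h minus 2 h differences in 3'-end share (14), score (12) and peaks of 75 bases (11). They also include 13 of 14 for the overlap excess. These 4 comparisons cannot give a p below 0.1, so their alternatives kept the side of the threshold by construction. The 4 reversals concern the 3'-end share against next-densest loci (2.27 without the outermost regions, 3.42 in the stronger 50%), their score difference (4.13 with a joining distance of 10000 bases) and the within-time excess of overlap (-0.0279 without 2 h replicate 3). The 3'-end difference from next-densest loci passed the unadjusted threshold at -1.09 with a joining distance of 500 bases, -3.76 with 10000, -1.93 with at least 15 peaks and -1.75 with close peaks counted as 1. The causes were not tested. With 1 list left out, 5 lists cannot give a p below 0.0625, so 18 sign-flip results lost the threshold by construction. Their values ran from 15.3 to 16.0 (last minus first 10%), 16.6 to 17.7 (its score) and -2.90 to -2.45 (score against next-densest loci). Leave-one-out values of the other results ran from -0.971 to -0.606 for the 3'-end share against next-densest loci, from -0.0279 to 6.18 for the overlap excess, and, for 24 h minus 2 h, from -1.73 to -0.931 for the 3'-end share (p = 0.2 in exact permutation tests without 2 h replicate 3 or 24 h replicate 1), from 2.48 to 3.42 for the score and from 3.80 to 4.89 for peaks of 75 bases.

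Same-numbered lists of the 2 times deviated together only slightly (correlations of peak numbers per locus 0.0650, 0.0694 and 0.0867, each the highest for its list). Between different numbers the correlations were all negative, from -0.0504 to -0.0175. Deviations cancel out over the lists of a time, so these must be negative on average when the same-numbered ones are positive. They are not a separate observation. The numbers were not taken as pairs in the main tests, and whether they mark pairs is not settled. With a replicate block the differences were as reported (-1.42, 3.01 and 4.41, exact sign-flip p = 0.25, the smallest 3 pairs allow). Depth behind the peaks is unknown and limits every statement on an absent peak.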
